A study of Mus musculus with 3 samples.

Results

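Small RNA genes were examined among the genes marked by the transcriptional repressors GFI1 and GFI1B in mouse haemogenic endothelium, the endothelium from which the first blood cells emerge. They were chosen by the deposited biotype alone: every listed gene given as miRNA, snoRNA, snRNA, misc_RNA or rRNA was taken. They numbered 308 of the 5238 genes listed for GFI1 and 267 of the 5327 listed for GFI1B, or 445 of 7612 different genes. The 445 comprised 141 snRNA, 117 miRNA, 113 snoRNA, 50 misc_RNA and 24 rRNA genes.

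The study used DamID, in which a bacterial DNA adenine methyltransferase (DAM) fused to a protein methylates DNA near the places that protein occupies. The 3 samples carried GFI1:DAM, GFI1B:DAM or DAM alone, each a doxycycline-controlled transgene at the HPRT docking site in embryonic stem cells of the AinV18 line. The stem cells were differentiated into embryoid bodies, FLK1+ cells were isolated from these at day 3.25 and cultured, and on day 2 of that culture haemogenic endothelium was sorted by TIE-2 and c-KIT. Methylated DNA was recovered by DpnI digestion, amplified and sequenced on an Illumina HiSeq 2500. Per the labels, 2 biological replicates were pooled in each sample, so no value below has an error over replicates and no test between the fusions was possible. The fusions are induced transgenes in cells differentiated in culture, and the lists hold no expression values with which to check the sorted cell type. Values of the control with DAM alone were not used here.

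Each list gives, for a gene, its marked intervals on mm9, the number of reads over them and the reads per kb of interval. Reads per kb are not scaled between the lists, so each value is also given as its percentile, the share of genes in the same list at or below it. Sequencing depth is unknown. Intervals on shares are exact binomial 95% intervals that cover counting error only, and genes marked by 1 interval are not independent of each other.

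MicroRNAs are cut from hairpin transcripts and repress messenger RNAs that pair with their seed, the bases near the 5′ end. Small nucleolar RNAs (snoRNAs) guide the modification of ribosomal and spliceosomal RNA, and in mammals most lie in introns of host genes, many of which encode parts of the translation machinery. The snRNAs are the RNA cores of the spliceosome, apart from U7, which directs the 3′ end processing of histone messages. The misc_RNA class held 7SK, which restrains the elongation kinase P-TEFb, with Y RNAs and the RNA of RNase P, and the rRNA class held mostly 5S genes. Several of these RNAs exist as many dispersed copies and copy-derived pseudogenes that carry the name of the RNA family. Of the 445 genes, 278 shared their symbol with another, and the 445 carried 192 symbols in all, so genes were matched between the lists by Ensembl identifier. Reads from near-identical copies may be placed on any of them.

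MicroRNA genes with a Mir symbol numbered 30 over the lists: 8 were marked by both fusions, 12 by GFI1 alone and 10 by GFI1B alone. A further symbol, mmu-mir-1194, was in the GFI1 list, and the remaining miRNA genes had clone names. RefSeq (GRCm38.p6) held mature sequences for 26 of the named genes, 46 mature entries with 45 different seeds. The sequences below are those of the better known microRNAs and of Mir3092, the named microRNA with the highest reads per kb among those in both lists. Each is written 5′ to 3′ with its seed, bases 2 to 8, in capitals. From genes in both lists:
mmu-miR-99b-5p: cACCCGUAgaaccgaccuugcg
mmu-miR-290a-3p: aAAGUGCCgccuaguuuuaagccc
mmu-miR-3092-3p: gAAUGGGGcuguuuccccucc
From genes in the GFI1 list alone:
mmu-miR-216b-5p: aAAUCUCUgcaggcaaauguga
mmu-miR-193b-3p: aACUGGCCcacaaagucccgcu
mmu-miR-30c-5p: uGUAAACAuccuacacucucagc
mmu-miR-7b-5p: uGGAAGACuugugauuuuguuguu
From genes in the GFI1B list alone:
mmu-miR-29a-3p: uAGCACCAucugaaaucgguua
mmu-miR-29b-3p: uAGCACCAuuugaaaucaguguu
mmu-miR-221-3p: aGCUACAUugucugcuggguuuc
mmu-miR-31-5p: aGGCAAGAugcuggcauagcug
mmu-let-7a-5p: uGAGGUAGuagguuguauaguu
mmu-miR-335-5p: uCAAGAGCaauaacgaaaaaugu
mmu-miR-802-5p: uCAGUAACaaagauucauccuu
The seed AGCACCA of miR-29a and miR-29b was the single seed that occurred more than once among these 46 entries, which hold none for Mir30b. Their genes, Mir29a and Mir29b-1, were both in the GFI1B list, within 20.1 kb of each other.

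The miRNA class held 82 genes for GFI1 and 74 for GFI1B. Of these, 21 and 18 had a Mir-type symbol, while 61 and 56 had clone names. The median signal was 58.0 reads per kb for GFI1, at percentile 66.9, and 55.5 for GFI1B, at percentile 53.4. The clone-named genes were no weaker than the named ones. Their medians were 59.9 against 53.4 reads per kb for GFI1 and 58.1 against 51.6 for GFI1B.

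Among named microRNAs of the GFI1 list, Mir216b had the highest value, 174 reads per kb at chr11:28623213-28624013 (percentile 99.0). Mir30b followed at 157 reads per kb, at chr15:68161220-68162070 (percentile 98.3). The nearest interval of a protein-coding gene in that list, listed under Tg, was 1470 kb from that of Mir30b. Neither Mir216b nor Mir30b was in the GFI1B list. Mir193b, also in the GFI1 list alone, had 79.9 reads per kb. Mir30c-2, which encodes a further member of the miR-30 family, had 43.1, and Mir7b had 40.8, both below the GFI1 list's median.

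Mir802 had the highest value of any microRNA in the GFI1B list, 377 reads per kb at chr16:93375167-93375917 (percentile 99.5). It was not in the GFI1 list, and the nearest coding interval, under Dopey2, was 433 kb away. Several microRNAs of vascular and blood biology were in the GFI1B list alone, at middling or low signal. Mir31, whose product represses PROX1 in human lymphatic endothelium, had 66.1 reads per kb at chr4:88580364-88582164 (percentile 67.8). Mir29a had 58.6 at chr6:30996255-30997005 (percentile 58.4), and its neighbour Mir29b-1 had 30.3 at chr6:31014805-31016355 (percentile 6.51). Mir145, a smooth muscle microRNA gene, had 56.6 at chr18:61791290-61793390 (percentile 55.2). Mirlet7a-1, of the let-7 family that promotes differentiation, had 48.8 at chr13:48633956-48635206. Mir221, whose product represses KIT, the receptor used in the sort, in human cells, had 35.2 at chrX:18695855-18696705 (percentile 13.5). None of these stood among the strongest genes of the list.

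Of the 8 named microRNA genes in both lists, Mir3092 stood highest in each, with 140 reads per kb with GFI1 and 146 with GFI1B (percentiles 97.2 and 96.2). The intervals were chr3:27483593-27484293 and chr3:27483576-27484276, and each was listed with identical bounds under Fndc3b. Mir99b, which lies in a cluster with let-7e and miR-125a known from blood stem cells, had 59.0 reads per kb for GFI1 (percentile 68.2) and 42.2 for GFI1B (percentile 26.7). Its GFI1 intervals were chr17:17950047-17951097 and chr17:17961897-17962897, and its GFI1B interval was chr17:17949791-17952041. Mir290, of the cluster that is abundant in pluripotent cells, had 45.3 and 30.2 reads per kb, at chr7:3201196-3202896 and chr7:3199948-3202298. In all 8 genes the intervals of the fusions overlapped. Mir5136 had 62.0 and 82.0 reads per kb, Mir3965 had 53.4 and 52.1, and Mir1965 had 43.1 and 39.4. Mir1894 had 38.1 and 43.5, and Mir3099, near the imprinted gene Peg3, had 29.1 and 51.2. Apart from Mir3092 none stood near the top of a list, the highest being Mir5136 for GFI1B (percentile 81.6). Near the bottom were Mir3099 for GFI1 (percentile 6.3) and Mir290 for GFI1B (percentile 6.38).

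**Figure D1:**
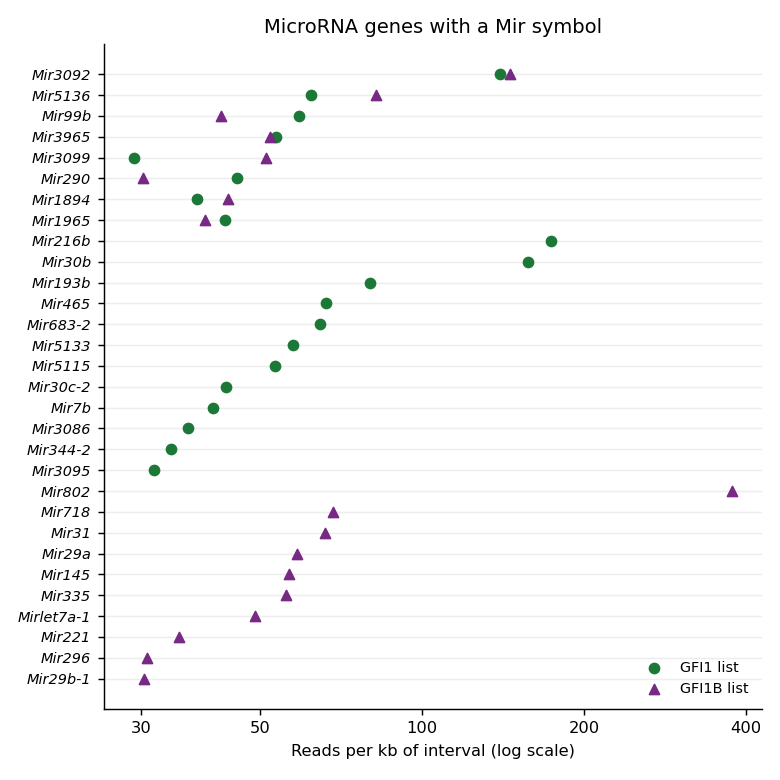
Reads per kb of interval (log axis) of the 30 microRNA genes with a Mir symbol, as circles for the GFI1 list and triangles for the GFI1B list, with genes in both lists first. Mir802 lies farthest right at 377 for GFI1B, and Mir3092 is high in both at 140 and 146.

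RefSeq held 1228 mouse microRNA genes, of which 18 (1.47%) were listed for GFI1, 17 (1.38%) for GFI1B and 7 (0.57%) in both. RefSeq includes microRNAs annotated later than the lists, which could not be listed and lower these shares. Named sets of microRNAs were counted against this background. Of 28 blood microRNA genes, 1 was listed for GFI1 (Mir99b) and 4 for GFI1B (Mir99b, Mir221, Mir29a and Mir29b-1). Of 20 endothelial ones, 0 and 1 were listed (Mir31), and of 15 of mesoderm and muscle 0 and 1 (Mir145). Of 17 pluripotency microRNA genes, Mir290 was listed for GFI1, and Mir290 and Mir296 for GFI1B. Of 33 in cell cycle clusters, Mirlet7a-1 was listed for GFI1B and 0 for GFI1, and of 6 in the Hox clusters 0 were listed for either. Over the sets together, 2 of 117 (1.71%) were listed for GFI1 and 9 of 117 (7.69%) for GFI1B. The first share was close to that of all RefSeq microRNA genes and the second above it, on few genes. The sets were chosen with earlier results of these data known, so these shares only describe the lists and support no preference.

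The clone-named miRNA genes included the strongest of the class for GFI1. AC115802.1 had 205 reads per kb at chr9:4281448-4282198, and was not in the GFI1B list. AC133891.1 was high in both lists, with 174 reads per kb for GFI1 at chr1:166923634-166924584 and 309 for GFI1B (percentiles 99.0 and 99.3). AC121802.1 had 166 and 164. No gene function is annotated for these clone names in the files.

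The snoRNA class held 84 genes marked by GFI1 and 56 by GFI1B. SNORA17, the family of H/ACA snoRNAs with that name, made up 45 (53.6%) of the first and 27 (48.2%) of the second, with 19 genes in both. The remainder, 39 and 29 genes, were mostly single copies of other families. The median signal of the whole class was 55.2 reads per kb for GFI1 (percentile 62.3) and 55.0 for GFI1B (percentile 52.3).

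SNORA17 genes and the other snoRNA genes differed in their surroundings. None of the SNORA17 genes had an interval that was also listed under a further gene, whereas 13 of 39 and 11 of 29 of the others did. The median distance from a SNORA17 interval to the nearest interval of a coding gene in the same list was 462 kb for GFI1 and 149 kb for GFI1B. For the other snoRNA genes it was 59.6 and 27.6 kb, including those at 0. Over all small RNA genes it was 174 and 124 kb, and for U6 genes 216 and 159 kb, so long distances were not particular to SNORA17. The reads per kb of SNORA17 genes ranged from 25.4 to 183 for GFI1 and from 18.7 to 206 for GFI1B. One SNORA17 gene headed the class in each list, with 183 reads per kb at chr17:54790597-54791697 and 206 at chr17:54790741-54791641. A second was high in both, with 97.7 for GFI1 and 139 for GFI1B.

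Of named snoRNAs in both lists, Snord118, which encodes the U8 snoRNA needed for 28S ribosomal RNA maturation, had 65.1 reads per kb with GFI1 and 65.4 with GFI1B. Snord13 had 57.2 and 43.0. SNORD23 had 45.5 and 46.6, and a SNORA65 gene had 61.8 and 73.6, all with overlapping intervals. These values lay in the broad middle of the lists. SCARNA4, which belongs to the snoRNA-like guides of the Cajal body, was in the GFI1B list alone at 193 reads per kb, at chr11:11805723-11806973. Its interval was 7.75 kb from the nearest coding interval, that of Ddc. SNORA40 reached 153 reads per kb for GFI1 at a gene absent from the GFI1B list.

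Host genes of snoRNAs were counted from a list of 69 genes named as snoRNA hosts. The list does not tell snoRNAs in introns from those that lie elsewhere in or beside the named gene, so no intronic position is implied below. Of these, 18 (26.1%) were marked by GFI1 and 21 (30.4%) by GFI1B, with 11 in both. For all RefSeq protein-coding genes the shares were 16.9% and 17.5%, and for RefSeq genes of all biotypes 8.46% and 8.63%. The host list was also chosen with earlier results of these data known, so the shares are a description. The hosts' medians were 47.2 and 55.8 reads per kb, close to the medians of coding genes. A snoRNA was listed with an identical interval for 3 of the 18 and 4 of the 21.

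For GFI1 those hosts were Snhg5, Tmem107 and Rps13. The interval of the snoRNA host transcript Snhg5, chr9:88413748-88417548, carried 85.0 reads per kb and was also listed under a pair of SNORD50 genes. The interval chr11:68886513-68888263 of Tmem107 was also that of Snord118, and that of Rps13, with 29.5 reads per kb, was also that of Snord14a. For GFI1B the hosts were Gas5, Tmem107, Rpl13a and Taf1d. Gas5, a host of many snoRNAs that is linked to growth arrest, had 54.9 reads per kb at chr1:162965934-162966934, an interval also given to SNORD75, SNORD24 and SNORD44. Rpl13a had 78.7 with Snord32a, and Taf1d 38.8 with SNORA40. Most marked hosts were therefore listed without a snoRNA. Among them were Ncl (nucleolin), with 43.7 and 68.7 reads per kb, Npm1 (nucleophosmin), with 37.0 and 41.3, and Nop58, a core protein of box C/D snoRNPs, with 41.0 and 117. The intervals of Npm1 overlapped between the lists, whereas those of Ncl and of Nop58 did not.

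The snRNA class was the largest, with 101 genes for GFI1 and 84 for GFI1B. Its medians were 55.5 reads per kb (percentile 62.8) and 55.9 (percentile 53.9). U6 accounted for 56 and 51 genes, with 21 in both lists, U1 for 17 and 15 (10 in both), and U7 for 12 and 5 (4 in both). U2 had 7 and 4 genes and U5 had 3 and 4. The minor spliceosome was represented by U11, U12 and U6atac.

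The highest snRNA value for GFI1 was that of a U6 gene at chr1:109625534-109626334, with 201 reads per kb (percentile 99.6), which had 173 for GFI1B (percentile 97.5). For GFI1B the highest of all small RNA genes was a U5 gene with 633 reads per kb at chr1:173432334-173434034 (percentile 99.9). That interval was also listed under the coding genes B930036N10Rik and Alyref2. The next was a U6 gene with 450 reads per kb at chr8:80329175-80330225, on an interval of its own. Neither was in the GFI1 list. Another U6 gene, on chromosome 16, had 209 for GFI1B (percentile 98.5) on 1 interval. For GFI1 it had 51.8 (percentile 56.2) over 2 intervals.

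The U11 gene, whose RNA recognises the 5′ splice site of minor introns, had 102 reads per kb for GFI1 at chr4:131824484-131825834 and 108 for GFI1B at chr4:131824464-131825814 (percentiles 92.4 and 91.2). The U12 gene had 43.8 for GFI1 and 96.1 for GFI1B, on overlapping intervals 2.75 and 2.60 kb from an interval of Vdac2. A U6atac gene on chromosome 15 had 52.9 and 68.1. Thus U11 was high in both lists, while U12 stood at percentile 37.8 in one and 88.0 in the other.

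Some snRNA genes lay close to copies of themselves. A pair of U5 genes on chromosome 9 was in both lists, with 115 and 78.0 reads per kb for GFI1 between 65043798 and 65049348, and 121 and 93.9 for GFI1B. In the GFI1 list, 3 U2 genes lay within 60.7 kb at chr11:101464613-101525263, with 73.0, 61.3 and 39.4 reads per kb. The GFI1B list held 2 U2 genes in the same stretch, with 122 and 108. The gene with 73.0 was the one with 122, whereas the interval of 61.3 for GFI1 overlapped that of 108 for GFI1B under a different U2 identifier. A pair of U1 genes at chr3:96268126-96306776 had 119 and 70.1 reads per kb for GFI1B. One U1 gene on chromosome 2 had 5 intervals for GFI1 and 4 for GFI1B, the most of any small RNA gene in the GFI1 list.

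The misc_RNA class held 28 genes marked by GFI1 and 37 by GFI1B, 19 and 22 of them 7SK genes. Its medians were the lowest of the 5 classes, 42.7 reads per kb for GFI1 (percentile 34.8) and 50.4 for GFI1B (percentile 44.6). The strongest for GFI1 was an RNaseP_nuc gene on chromosome X with 130 reads per kb. The same gene had 51.9 for GFI1B, at an interval 32.5 kb away. The strongest for GFI1B was AC142099.1 with 121, on an interval it shared with Ift122, followed by AL591070.1 with 116, an RNaseP_nuc gene with 111 and a Y_RNA gene with 109.

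The rRNA class was the smallest, with 13 and 16 genes. They were 5S_rRNA copies (9 and 10) and n-R5s genes (3 and 5), with a clone-named gene for GFI1 and n-R5-8s1, a 5.8S gene with 39.4 reads per kb, for GFI1B. Medians were 46.1 reads per kb (percentile 43.8) and 55.6 (percentile 53.4). A 5S_rRNA gene at chr9:63893398-63894048 had 127.5 reads per kb with GFI1 and 80.6 with GFI1B, 83.5 kb from an interval of Smad6. The highest in the GFI1B list was n-R5s198, with 153 reads per kb at chr2:74793672-74794822, which was not in the GFI1 list.

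**Figure D2:**
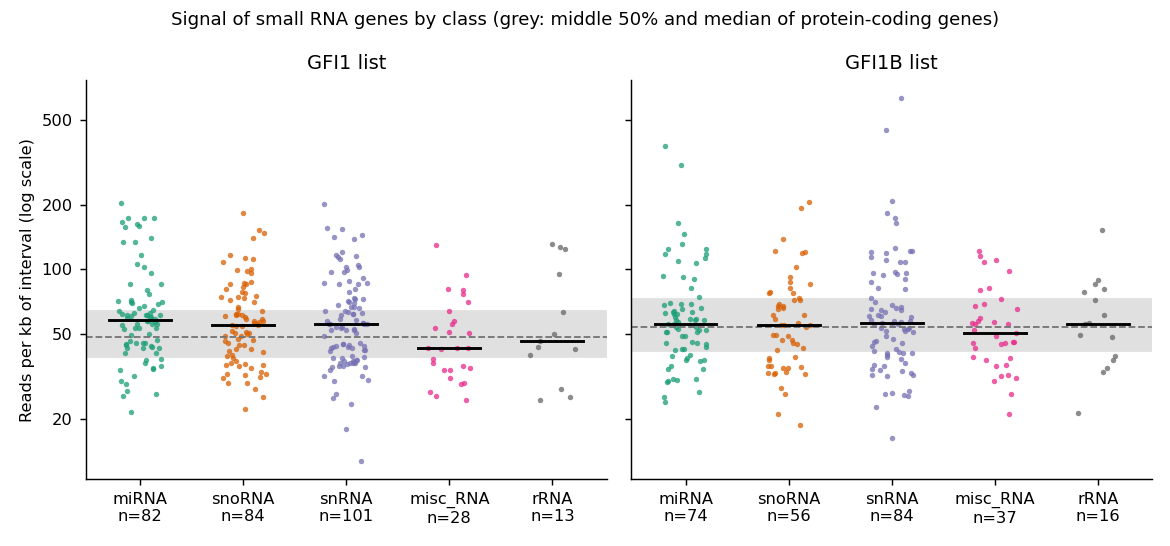
Reads per kb of interval (log axis) of every small RNA gene by class in the GFI1 and GFI1B lists; points are genes, black bars class medians, the grey band and dashed line the middle 50% and the median of coding genes. For GFI1 the miRNA, snoRNA and snRNA medians lie at 58.0, 55.2 and 55.5 against 48.3 for coding genes, and for GFI1B at 55.5, 55.0 and 55.9 against 53.6.

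Against protein-coding genes, small RNA genes had the higher median signal per kb for GFI1, 55.1 against 48.3 reads per kb, with the middle 50% of coding genes between 38.9 and 63.8. For GFI1B the medians were 55.2 and 53.6, with the middle 50% of coding genes from 41.4 to 72.9. Both differences were small beside the spread among genes. Of the small RNA genes, 183 of 308 (59.4%) lay above the GFI1 list's median and 142 of 267 (53.2%) above that of GFI1B, where 50% of all genes do. In the top 5% by reads per kb stood 26 (8.44%) and 14 (5.24%), against 5% and 5.01% of all genes. The miRNA class supplied 11 of the 26. Reads per kb fell with interval width, and intervals of small RNA genes had a median of 1151 bp against 1201 bp over the GFI1 list, and of 1351 bp in both for GFI1B. Among GFI1 genes with a single interval, small RNA genes had the higher median in each width range, 62.3 against 53.7 below 1000 bp, 50.9 against 49.0 from 1000 to 1500 bp, and 44.4 against 41.1 above. For GFI1B these medians were 60.5 against 57.8, 56.4 against 54.4 and 49.0 against 48.9. The total read number per gene went the other way, its median differing from the coding median by -8.55% for GFI1 and -15.5% for GFI1B. Most small RNA genes had a single interval, 278 (90.3%) and 233 (87.3%), against 72.1% and 69.1% of coding genes.

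Of the 445 small RNA genes, 130 were in both lists, 178 had GFI1 alone and 137 had GFI1B alone. The 130 were 42.2% of the GFI1 genes (interval 36.6 to 47.9%) and 48.7% of the GFI1B genes (42.6 to 54.9%). For all genes the corresponding shares were 56.4% and 55.4%, and for coding genes 59.4% and 56.9%. Of the 130, 105 had overlapping intervals in the lists, 34.1% and 39.3% of the small RNA genes against 43.7% and 43% of all genes. Coding genes with a single interval were shared less often than those with several. Their shares were 50.6% against 82.1% for GFI1 and 46.1% against 81.0% for GFI1B. Among genes with a single interval, 37.8% (32.0 to 43.8%) of small RNA genes of the GFI1 list were in both, against 50.6% of coding genes, and 45.9% (39.4 to 52.6%) of the GFI1B list, against 46.1%. Among single-interval genes the shares were thus close for GFI1B, while the small RNA share was the lower one for GFI1. Matching by gene name, which counts copies with a common family name as one, turned the order, to 75.97% and 78.3% of small RNA genes against 58.5% and 57.0% of all genes.

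**Figure D3:**
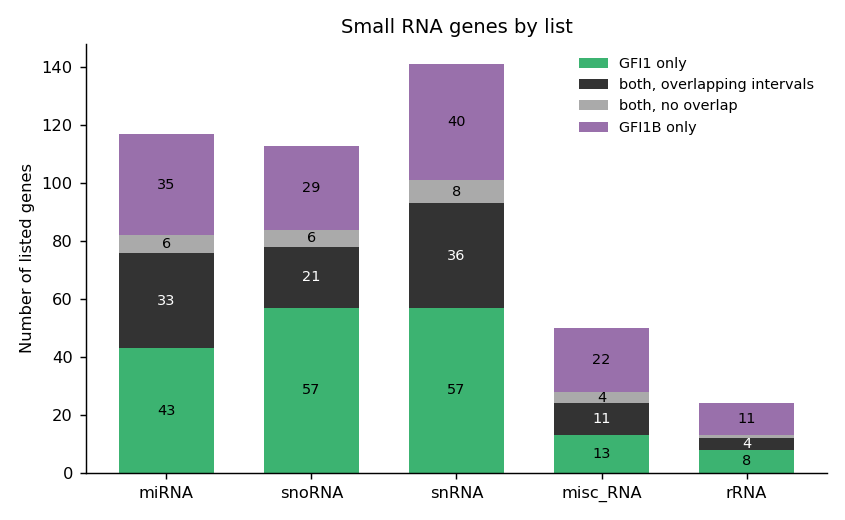
Number of small RNA genes of each class listed for GFI1 only, for both fusions with overlapping intervals, for both without overlap, and for GFI1B only. The snRNA class is the largest at 141 genes with 44 in both, and snoRNA has 27 of 113 in both.

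By class, snoRNA genes of the GFI1 list were shared least, 27 of 84 or 32.1% (22.4 to 43.2%), and miscellaneous RNAs most, 15 of 28 or 53.6%. The miRNA share was 47.6% and the snRNA share 43.6%. In the GFI1B list the miRNA and snRNA shares were 52.7% and 52.4%, with snoRNA at 48.2% and misc_RNA at 40.5%. The rRNA shares were 38.5% of 13 genes for GFI1 and 31.25% of 16 for GFI1B. Within each list the binomial intervals of all classes overlapped each other. The low snoRNA share for GFI1 was 28.2% among single-interval genes, whose coding counterpart was 50.6%. For GFI1B the corresponding shares were close, 45.8% and 46.1%. The GFI1 list had 57 snoRNA genes of its own and the GFI1B list 29.

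**Figure D4:**
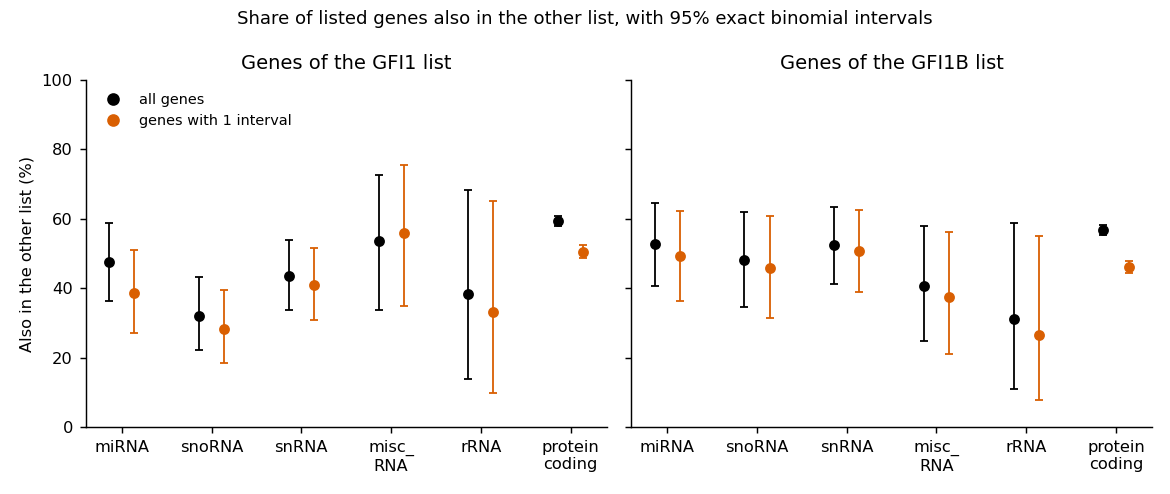
Percent of listed genes of each class that are also in the other list, for all genes (black) and genes with a single interval (orange), with 95% exact binomial intervals. The snoRNA genes of the GFI1 list are lowest among the larger classes at 32.1%, and coding genes stand at 59.4% and 56.9%.

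A few shared places were hidden by the naming of genes. For 5 GFI1 genes (1.62%) and 3 GFI1B genes (1.12%), an interval overlapped one of the other list that was given there to another gene alone. Over all genes these shares were 0.573% and 0.695%. The Snhg5 interval was one, since GFI1B marked chr9:88414148-88416348 with 141 reads per kb under Snhg5 without the SNORD50 genes. SNORD111 of the GFI1 list met Sf3b3 of the GFI1B list, and n-R5s34 of the GFI1B list met Fstl1 of the GFI1 list. When small RNA genes in both lists had no overlapping intervals, the gap between them was 10.8 kb at the median and 48.6 kb at most. Over all such genes it was 17.4 kb at the median and 1204.85 kb at most.

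Over the 130 genes in both lists, the ranks of reads per kb ran together, with a Spearman rank correlation of 0.563 across genes, against 0.505 over the 2472 coding genes in both. The rank correlation was 0.657 over the 105 genes with overlapping intervals and 0.136 over the 25 without. Genes are not independent replicates and the lists share the genome's DpnI sites, so these are descriptions. Above percentile 90 in both lists were 14 of 130 small RNA genes (10.8%) and 86 of 2472 coding genes (3.48%). Reads per kb are taken over all intervals of a gene. In the GFI1 list, 25 of these 130 genes and 955 of these 2472 had several. The comparison was not repeated for single-interval genes. Genes in both lists had a higher median than the others for snRNA, 55.8 against 45.3 reads per kb for GFI1 and 65.2 against 51.2 for GFI1B. The same held for snoRNA, at 61.3 against 54.2 and 65.9 against 45.0. It did not hold for miRNA, at 55.7 against 61.0 and 55.2 against 55.8, nor for misc_RNA, at 42.8 against 42.7 and 45.9 against 55.6. The few rRNA genes in both lists had the lower medians, 27.5 against 56.5 and 34.8 against 61.2.

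**Figure D5:**
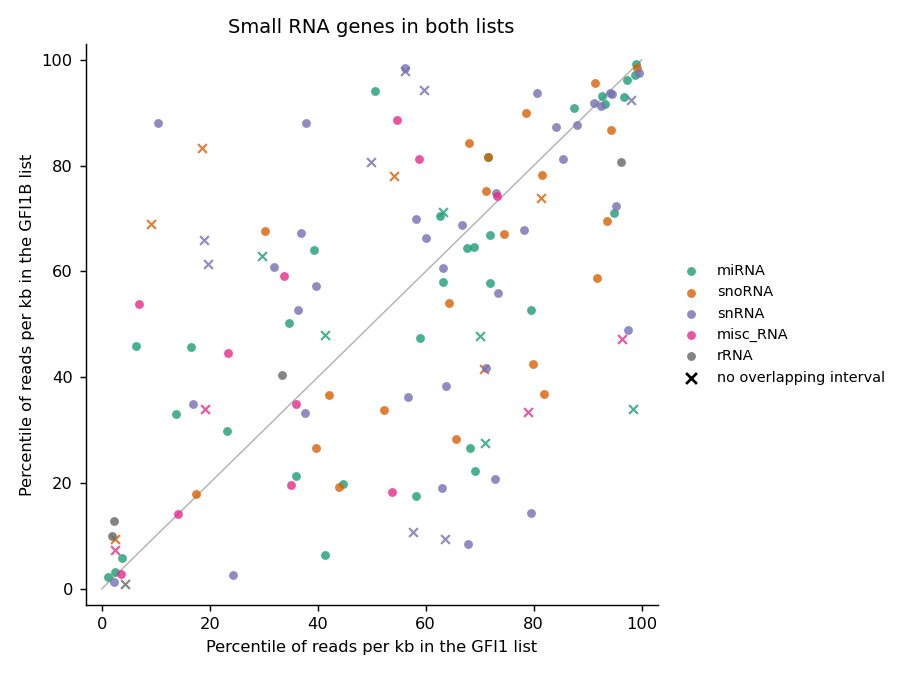
Percentile of reads per kb in the GFI1 list against that in the GFI1B list for the 130 small RNA genes in both, coloured by class; crosses are genes whose intervals do not overlap and the line marks equal percentiles. A group of 14 genes lies above percentile 90 in both lists.

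An interval listed with identical bounds under a further gene was found for 27 GFI1 genes (8.77%) and 25 GFI1B genes (9.36%), against 9.28% and 12.7% of all genes and 7.42% and 10.7% of coding genes. In these cases the data do not say which gene the mark belongs to. The shared intervals numbered 24 and 22, and 22 and 20 of them were listed under a coding gene. By class the share was highest for snoRNA, 15.5% and 19.6%, and lowest for snRNA, 1.98% and 4.76%. No mm9 annotation was used, so whether an interval without a further gene lies inside a gene was not assessed.

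Of the shared intervals, those of Mir3092 with Fndc3b and of Snord118 with Tmem107 and Gm12306 were in both lists. So were those of Mir1894 with Ppp1r10, of Mir5136 and 5730408K05Rik with 1810009A15Rik, and of a 7SK gene with Cep68, which had 42.4 and 59.1 reads per kb. A 5S_rRNA gene shared its interval with Lrrk1 and Gm10974 in both, at 25.2 and 34.8 reads per kb. Fndc3b itself had 4 intervals for GFI1 and 5 for GFI1B and 65.9 and 67.6 reads per kb over them, below the 140 and 146 of the interval shared with Mir3092.

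In the GFI1 list alone, Snord95 and Snord96a shared an interval with Gnb2l1, which encodes the ribosome-associated protein RACK1, at 50.3 reads per kb. A SNORA31 gene was listed with Rptor, a subunit of the growth kinase complex mTORC1, at 57.4. The clone-named miRNA gene AC127419.1 shared its interval with Ctcf, which encodes a chromatin insulator protein, at 43.2, and Mir3095 shared one with Lpar1 at 31.6. AL773548.1 was listed with Asph at 117 for GFI1, and had 68.9 for GFI1B on an interval of its own. Of the 27 further genes on shared intervals of the GFI1 list, 20 were also listed for GFI1B, among them Rptor, Ctcf, Lpar1 and Asph. Over all genes of the GFI1 list that share was 56.4%.

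In the GFI1B list alone, Mir335 shared chr6:30691305-30692505 with Mest, the imprinted gene that hosts it, at 55.8 reads per kb. The clone-named genes AL591146.1, AL669855.1 and AC142099.1 were listed with Zfp207 at 131, with Actg1, which encodes cytoplasmic gamma actin, at 124, and with Ift122 at 121. SNORA9 shared an interval with the long non-coding gene Gm11974 at 122, a U1 gene with Tex14 at 97.2 and a U6 gene with Plec at 57.1. A U3 gene had shared a different interval with Tex14 in the GFI1 list, at 44.1. Of the 25 further genes on shared intervals of the GFI1B list, 12 were also listed for GFI1, among them Zfp207, Tex14 and Plec. Over all genes of the GFI1B list that share was 55.4%. Small RNA genes on shared intervals ranged from percentile 2.3 to 97.2 for GFI1 and from 2.77 to 99.9 for GFI1B. For GFI1 their median was below that of genes on intervals of their own in each class. It was 40.7 against 58.8 reads per kb for miRNA and 51.6 against 56.3 for snoRNA. For GFI1B it was above in each class except rRNA, at 102.99 against 54.19 for miRNA and 54.95 against 53.97 for snoRNA. Several classes had few such genes, and the difference was not tested.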

How the data were processed

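Per the labels, each of the 3 DamID samples pooled 2 biological replicates. The data used were the deposited gene lists of the fusions, assigned by worksheet name. Per the file headers, the authors made the GFI1B list with BayesPeak and a method written SS (threshold 0.05), merging lanes and subtracting control reads before SS. For GFI1 the header ends after BayesPeak, so further steps are unknown. Per the submitters' processing notes, coordinates are on mm9. The sources used here give neither the aligner nor the rule that tied intervals to genes. The deposited read numbers were handled as scores, because it is not stated whether control reads were taken off. The deposited signal, reads per kb, equalled read number over summed interval length in all 5238 and 5327 genes, within 0.0051. It is not scaled to library size, so it was compared within lists only.

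Members were taken by biotype, matched by Ensembl identifier, and called overlapping from 1 bp. Named genes were those with a Mir symbol, the 6 strongest per class, those sharing an interval and those of the fixed lists, plus examples picked after their values were seen. The members and lists were chosen with earlier results of these data known. With 1 sample per fusion no test was run. Scripts were tested on simulated data and used Python 3.11.15, pandas 2.3.3, numpy 2.4.6, scipy 1.17.1 and matplotlib 3.10.9. MicroRNA names and sequences came from RefSeq GRCm38.p6. Alternatives tried were matching by name, other overlaps, distinct intervals, the stronger 50% of each list, read number and single-interval genes.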

Additional observations from a re-analysis of the deposited data

How the results depend on the processing

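No paired analysis was possible because each fusion was 1 pooled sample, and for the same reason no replicate could be left out. Small RNA genes made up 5.88% of the GFI1 list, 6.99% of its stronger 50% and 4.77% of its distinct intervals, and 5.01% and 4.06% (distinct intervals) for GFI1B. Their sharing rose from 42.2% and 48.7% to 75.97% and 78.3% when genes were matched by name, above the 58.5% and 57.0% of all genes, since family names are shared by many copies. It was 34.1% and 39.3% with an overlap of 1 bp, 32.8% and 37.8% with 50% of the shorter interval (all genes 42.0% and 41.3%), 31.1% and 40.1% in the stronger 50% of each list (all genes 41.2% and 40.5%), and 35.7% and 40.4% for overlap with any interval. The last alternative, sharing among single-interval genes and the width ranges were added after seeing the data. The difference of the small RNA median from the coding median turned from 14.1% to -8.55% for GFI1, and from 3.05% to -15.5% for GFI1B, when read number replaced reads per kb, and the cause was not tested. By class, read number turned miRNA (-4.61%) and snRNA (-9.21%) for GFI1, and miRNA and snoRNA (both -19.6%) and rRNA (-12.4%) for GFI1B. Single-interval genes turned rRNA for GFI1 (0.481%). Of the alternative shares, 92 stayed within the binomial interval of the reported share and 28 did not. These counts include each single class, whose intervals are wide. For all small RNA genes together, the sharing left its interval in both lists under every alternative except single-interval genes. Of the alternative strength differences, which have no spread to judge them by, 40 kept their sign and 8 changed it. Depth is unknown, so absence from a list does not show that a gene was unmarked.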

Other observations

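Some small RNA genes lay near each other. Within 100 kb of each other were 28 of 308 GFI1 genes, in 13 groups, and 25 of 267 GFI1B genes, in 12 groups. The groups held at most 3 genes each and included copies of 1 family and genes given the same interval. Among coding genes, which are more numerous, 40.1% and 45.6% had an interval of another listed coding gene within 100 kb. Groups were not counted over all genes, so these counts do not show that small RNA genes cluster. Some groups held genes of different families. Mir99b lay beside a 7SK gene on chromosome 17 in both lists, the latter with 25.6 reads per kb with GFI1 and 30.9 with GFI1B. Mir1965 lay beside the clone-named miRNA gene AC164075.1 on chromosome 7, which had 62.4 and 58.2 reads per kb, and Mir3099 beside AC149277.1, which had 42.8 and 38.5. The U1 gene with 5 intervals on chromosome 2 also had a 7SK gene beside it in both lists, with 29.5 and 55.9 reads per kb. A SNORA40 gene and a SNORA17 gene on chromosome 10 lay within 65.6 kb for GFI1, with 50.7 and 36.1 reads per kb, and within 86.4 kb for GFI1B, with 77.3 and 85.1. These groups were named after their values were seen.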
